A study of Mus musculus with 18 samples.

Results

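The 2 arms of the microRNA miR-21a were followed in mouse knee cartilage, from the femoral condyle, once the anterior cruciate ligament (ACL) had been ruptured by loading. A microRNA (miRNA) hairpin is cut into a short duplex with a 5p and a 3p arm, of which one usually stays bound to an Argonaute protein as the guide and the other, the passenger, is mostly degraded. The members were the mature arms of the Mir21a hairpin, mmu-miR-21a-5p and mmu-miR-21a-3p (the prefix stands for mouse and is left out from here on), taken by name from the 1412 mature miRNAs of the count table, and both were found. Their levels and the ratio of 1 arm to the other were described in all 18 libraries.

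All mice were C57bl6 and 12 weeks old, and male per the study's methods. In the injured groups a single load of 12 N was put on the right knee to rupture the ligament, and cartilage of the injured right knee and of the unloaded contralateral left knee was taken at day 1 (n = 3 libraries each) or day 7 (n = 3 libraries each). Naïve mice received no load, and their cartilage was collected with a day 7 label (n = 6 libraries). Per the study's methods the cartilage caps were detached at the tidemark and pooled before RNA was extracted, and left and right naïve knees were pooled apart. The labels give 4 mice per sample, whereas the methods name 6 mice at day 1, 12 at day 7 and 6 naïve mice. The 6 pooled naïve libraries must therefore share mice, and injured and contralateral libraries of a time point come from the same mice. A note to the study's design figure explains pools of 4 mice by cartilage partly lost at day 7. Pools at day 1 and of naïve mice may thus have been smaller than those at day 7. The part of pool size and of cartilage loss in the day 7 differences was not tested. The p-values measure the spread between pools and not between single mice, and they treat libraries that share mice as independent. The methods name anaesthesia and analgesia for the loaded mice, which their contralateral knees share.

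miR-21 is among the most studied animal miRNAs. Its 5p arm is the guide, is known for repressing mRNAs such as those of Pdcd4, Spry1 and Reck, and is known to be raised in wounded, inflamed and fibrotic tissue. Its hairpin is transcribed together with, and also from a promoter of its own inside, the gene Vmp1, which codes for an autophagy protein. The first bases of the guide, bases 2 to 8, are the seed that pairs with target mRNAs, so sequences that share it are treated as a family.

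The mature sequences decide what a read can be counted as, so both arms are shown with the pair of near copies that the mouse table also holds. The sequences are from RefSeq on GRCm38.p6, 5′ to 3′, with the seed (bases 2 to 8) in capitals.
miR-21a-5p: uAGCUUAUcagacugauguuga
miR-21a-3p: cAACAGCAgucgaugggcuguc
miR-21b: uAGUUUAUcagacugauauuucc
miR-21c: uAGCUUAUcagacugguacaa

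The Mir21a hairpin has 92 bases and lies on the minus strand at chr11:86584067-86584158. The 5p arm took hairpin positions 18 to 39 (chr11:86584120-86584141) and the 3p arm positions 56 to 77 (chr11:86584082-86584103). In the GENCODE annotation of GRCm38 the hairpin sits wholly inside exon 12 of a protein-coding Vmp1 transcript on the same strand, within its annotated UTR. The arms share no seed with each other. Of the 1184 mature names in the table with a RefSeq sequence, miR-21c (chr8:128278188-128278208, minus strand) was the only other one with the seed of miR-21a-5p, and none other had that of miR-21a-3p. miR-21b (chr3:29636768-29636790, plus strand) differs from miR-21a-5p inside the seed. Counted from the 5′ end of miR-21a-5p, miR-21b carries C4U, G18A, G21U and A22C, whereas miR-21c carries A16G, G18A, U19C, U20A and G21A over the bases the pair share.

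Libraries held between 758388 and 4088852 counts, the lowest being day 7 injured replicate 1 and the highest day 7 contralateral replicate 2. Cartilage markers (4 arms of miR-140 and miR-455) summed to between 5029 and 10499 CPM (counts scaled to a common library size with TMM) over all libraries. Skeletal muscle markers (4 miRNAs, miR-1a, miR-133a, miR-133b and miR-206) summed to between 55088 and 274713 CPM, and vascular markers (4 miRNAs) to between 48221 and 97625 CPM in all libraries, each well above the cartilage markers. No marker was at 0 throughout a group.

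miR-21a-5p was an abundant miRNA that rose at day 7 in the injured knee. It stood at place 20 of the 428 miRNAs past the filter on low counts by mean CPM over all libraries, with a mean of 10538 CPM. The miRNAs next above it were miR-24-3p (10856 CPM), miR-27a-3p (11547 CPM) and let-7j (11659 CPM), and those next below were miR-378d (9612 CPM), miR-10a-5p (9518 CPM) and miR-125b-5p (9460 CPM). Its place by group mean was 30 in naïve, 27 in day 1 contralateral, 31 in day 1 injured and 25 in day 7 contralateral cartilage, and 12 in day 7 injured cartilage. These are places within a library set and carry no test.

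The levels of miR-21a-5p in the 6 naïve libraries had a lowest value of 3099 CPM, a median of 8175 CPM and a highest value of 9475 CPM. Day 1 contralateral libraries gave 6601, 8815 and 7057 CPM, and day 1 injured libraries gave 8263, 4357 and 7409 CPM. Day 7 contralateral libraries gave 7532, 7183 and 11871 CPM. Day 7 injured libraries gave 19837, 25533 and 30657 CPM. The lowest of the day 7 injured values was thus above the highest of the 15 other libraries, a pattern that 12.9% of all miRNAs tested showed.

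As group means, miR-21a-5p stood at 25342 ± 5413 CPM (SD, n = 3) in day 7 injured, 8862 ± 2612 CPM (SD, n = 3) in day 7 contralateral, 7491 ± 1169 CPM (SD, n = 3) in day 1 contralateral, 7430 ± 2436 CPM (SD, n = 6) in naïve and 6676 ± 2053 CPM (SD, n = 3) in day 1 injured cartilage. The 4 lower groups overlapped one another, and no neighbours among them in this order differed beyond their spread. As a share of the library's own counts, before any scaling, miR-21a-5p took 1.90%, 2.53% and 2.89% of the day 7 injured libraries and between 0.393% and 1.14% of the others. The 95% Wilson intervals of these shares were narrow (1.87% to 1.93% for the shallowest library), which covers counting error only. In bulk tissue, fewer cells of a type and less RNA per cell cannot be told apart.

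**Figure D1:**
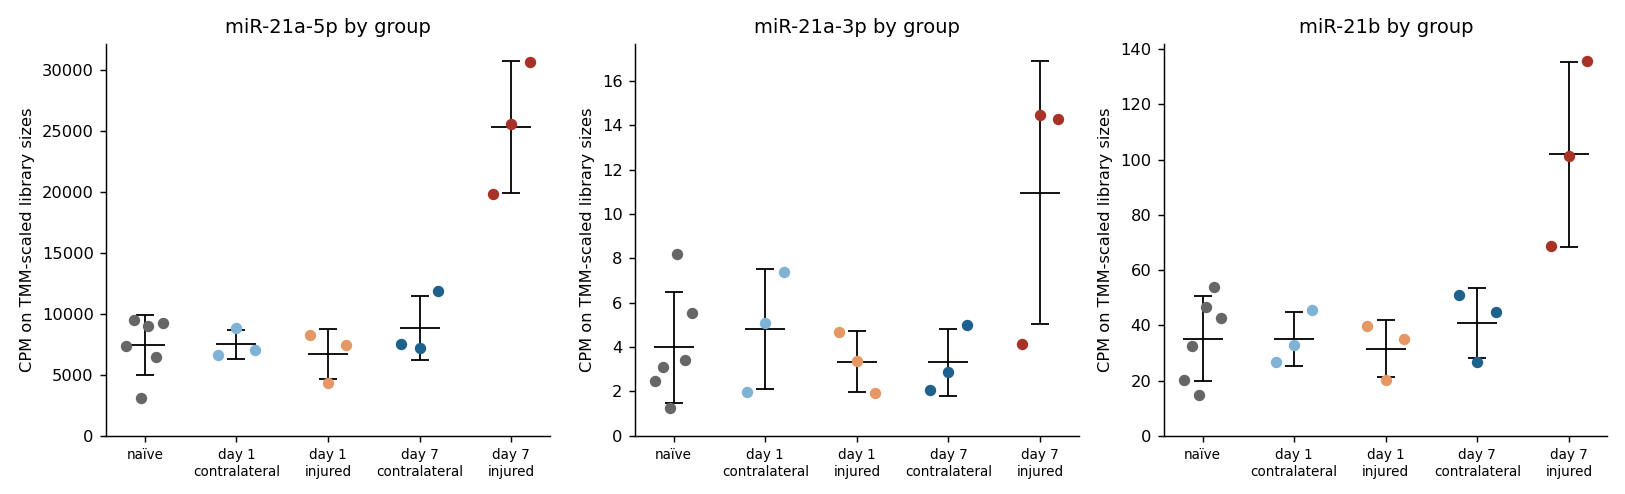
Levels of miR-21a-5p, miR-21a-3p and the near copy miR-21b in CPM on TMM-scaled library sizes, with 1 point per library and a mean with SD bars per group (n = 6 naïve, n = 3 in each other group). The 3 day 7 injured libraries lie above all others for miR-21a-5p (19837 to 30657 CPM) and miR-21b (68.7 to 136 CPM), while for miR-21a-3p 1 of them, at 4.12 CPM, lies among the controls.

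Against naïve cartilage, the question of what ruptured joints gain over unloaded mice, miR-21a-5p rose 3.61 fold at day 7 (1.85 ± 0.29 SE on the log2 scale, limma-voom adjusted p = 8.23e-05, from a linear model fitted to all miRNAs and libraries). In this comparison 62 of 428 miRNAs tested were called higher, a background of 14.5% (and 3.74% were called lower), and 15.4% had every injured library above every naïve one. Among the 73 miRNAs averaging 1000 CPM or more, miR-21a-5p had the largest log2 fold change. That place depends on the cut, since miR-379-5p (mean 877 CPM, log2 2.11) and miR-434-5p (848 CPM, log2 2.03), just under it, rose more. Against the contralateral knee of the same time point miR-21a-5p rose 2.93 fold (log2 1.55 ± 0.34 SE, limma-voom adjusted p = 0.00241), where 13.8% of the miRNAs tested were called higher and 17.5% had no overlap in this direction. Between day 1 and day 7 in injured knees it rose 3.89 fold (log2 1.96 ± 0.35 SE, limma-voom adjusted p = 0.000482), against 12.1% called higher and 18.7% without overlap. These comparisons share the day 7 injured libraries and are not independent of each other.

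At day 1 no change in miR-21a-5p was called. The injured knee stood at a log2 fold change of -0.11 ± 0.31 SE against naïve (95% interval -0.76 to 0.54, limma-voom adjusted p = 0.992) and of -0.20 ± 0.36 SE against the contralateral knee (95% interval -0.94 to 0.54, limma-voom adjusted p = 0.997). The intervals leave room for a rise of up to 1.45 fold in either comparison. In both, limma-voom called 0% of the 428 miRNAs, 8 had an unadjusted p under 0.05 in each, and edgeR and DESeq2 also called 0 there.

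The uninjured knee of loaded mice was compared with naïve knees, the other kind of control, and between time points. For miR-21a-5p the day 7 contralateral knee stood at a log2 fold change of 0.30 ± 0.30 SE against naïve (limma-voom adjusted p = 0.764), the day 1 contralateral knee at 0.09 ± 0.31 SE (limma-voom adjusted p = 0.996), and day 7 against day 1 contralateral at 0.21 ± 0.35 SE (limma-voom adjusted p = 0.938). None was called, limma-voom called 0% of all miRNAs in each of these comparisons, and 23, 4 and 25 miRNAs had an unadjusted p under 0.05. edgeR called 0 in each, and DESeq2 called 1 miRNA in the first, 0 in the second and 2 in the third.

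The difference between the time points was itself tested. The change against the contralateral knee was larger at day 7 than at day 1 by 1.75 ± 0.49 SE on the log2 scale for miR-21a-5p (limma-voom adjusted p = 0.0325), in a comparison where 6.78% of miRNAs were called higher. This call was lost in 7 of 12 fits with a library left out, while the difference ran from 1.53 to 1.98. Without day 7 injured replicate 3 the difference was 1.60 (limma-voom adjusted p = 0.105), without day 7 injured replicate 2 it was 1.74 (0.0702), without day 1 injured replicate 2 it was 1.53 (0.0900) and without day 7 contralateral replicate 2 it was 1.61 (0.0832). Without day 1 contralateral replicates 1, 2 or 3 it was 1.84 (0.0504), 1.62 (0.0868) or 1.85 (0.0582).

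**Figure D2:**
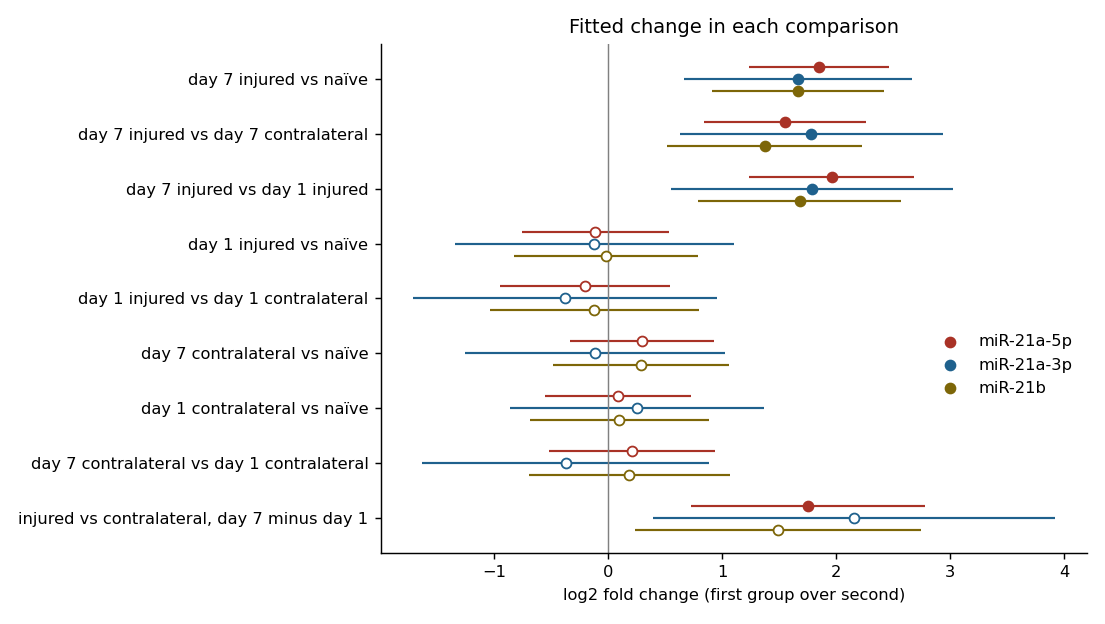
Fitted log2 fold changes of miR-21a-5p, miR-21a-3p and miR-21b in 9 comparisons, with 95% intervals. Filled points have a limma-voom adjusted p under 0.05; both arms are filled in the 3 comparisons of day 7 injured cartilage, and in the difference between the time points miR-21a-5p alone is filled.

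A scale that uses no library size gave the same direction. Per read of miR-140-3p, the cartilage miRNA of a Wwp2 intron, there were 9.27, 8.53 and 11.6 reads of miR-21a-5p in the day 7 injured libraries and between 1.09 and 4.13 in the others. The groups did not overlap, and the share of other miRNAs that separate in this way on the same scale was not computed. This ratio was added after seeing the data. On the log2 scale the day 7 injured ratio was 1.94 above naïve (3.28 ± 0.23 against 1.34 ± 0.71, SD, n = 3 and n = 6, exact permutation p = 0.0238, the smallest that these groups allow, two-sided). Against day 7 contralateral and day 1 injured libraries it was 1.55 and 1.94 higher (exact permutation p = 0.1 for each, the smallest that n = 3 against n = 3 allows). Groups without overlap always give the smallest p in this test. The p-values thus restate the lack of overlap and add no evidence to it.

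miR-21a-3p, the passenger arm, was rare in every group, with a mean of 5.07 CPM and place 382 of 428. Naïve libraries held 5, 7, 2, 13, 4 and 10 of its reads. Day 1 contralateral libraries held 4, 14 and 11 reads, day 1 injured libraries 9, 4 and 4, and day 7 contralateral libraries 3, 11 and 12. Day 7 injured libraries held 3, 32 and 43 reads. A count of 3 in day 7 injured replicate 1, the shallowest library, has an exact 95% Poisson interval of 0.619 to 8.77 reads, so its level is hardly fixed by the data.

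Scaled, miR-21a-3p had a lowest value of 1.23 CPM, a median of 3.26 CPM and a highest value of 8.20 CPM in naïve libraries. It stood at 1.97, 5.09 and 7.37 CPM in day 1 contralateral, 4.70, 3.35 and 1.94 CPM in day 1 injured, and 2.06, 2.87 and 4.99 CPM in day 7 contralateral libraries. Day 7 injured libraries gave 4.12, 14.5 and 14.3 CPM. Replicates 2 and 3 were above all 15 other libraries, and replicate 1 lay within their range, so the groups overlapped. By mean the order was day 7 injured (10.96 ± 5.92 CPM, SD, n = 3), day 1 contralateral (4.81 ± 2.71, SD, n = 3), naïve (3.99 ± 2.50, SD, n = 6), day 1 injured (3.33 ± 1.38, SD, n = 3) and day 7 contralateral (3.31 ± 1.51, SD, n = 3), and the 4 lower groups did not differ beyond their spread.

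The passenger arm was called higher at day 7 in the injured knee, by 3.18 fold against naïve (log2 1.67 ± 0.48 SE, limma-voom adjusted p = 0.0167), 3.44 fold against the contralateral knee (log2 1.78 ± 0.55 SE, limma-voom adjusted p = 0.0320) and 3.45 fold against day 1 injured cartilage (log2 1.79 ± 0.59 SE, limma-voom adjusted p = 0.0464). It passed the filter on low counts with 4 libraries above the minimum of 4.83 CPM, of which 2 were day 7 injured, while 3 were needed, so it entered the test through the group in which it was high. When every miRNA with a count was kept, none of the 3 calls held (log2 1.57, 1.67 and 1.71, limma-voom adjusted p = 0.0536, 0.107 and 0.119). Without day 7 injured replicate 2 or 3 they were lost too, with log2 changes of 1.48 and 1.45 against naïve (limma-voom adjusted p = 0.0991 and 0.143), 1.60 and 1.56 against contralateral (0.132 and 0.200) and 1.60 and 1.57 against day 1 injured (0.158 and 0.200). Leaving out day 7 contralateral replicate 1 or 2 ended the call against the contralateral knee (log2 1.67 and 1.64, limma-voom adjusted p = 0.0594 and 0.111), and leaving out any day 1 injured library ended the call against day 1 (log2 2.08, 1.94 and 1.49 without replicates 1, 2 and 3, limma-voom adjusted p = 0.0602, 0.0745 and 0.195).

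In the comparisons of day 1 and of control knees miR-21a-3p was not called, with log2 fold changes from -0.37 to 0.26 and standard errors from 0.53 to 0.64. The difference of its injury effect between day 7 and day 1 was 2.16 ± 0.84 SE on the log2 scale and missed the threshold (limma-voom adjusted p = 0.173). That the 5p arm passed there and the 3p arm did not is no sign that the arms differ, which the ratio of the arms tests directly.

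The 5p arm outnumbered the 3p arm by far in every group. Over all libraries 394371 reads of miR-21a-5p stood against 191 of miR-21a-3p, or 2065 to 1 (95% Wilson interval 1792 to 2379), so the 3p arm made up 0.0484% of the reads of both. Of the 111 hairpins with both arms tested, Mir21a had the second largest imbalance by mean log2 ratio (10.99), where the median size was 2.85 and the 5p arm was the main one in 68. Summed by group the ratio was 1945 in naïve, 1660 in day 1 contralateral, 2134 in day 1 injured, 2579 in day 7 contralateral and 2092 in day 7 injured cartilage. The 95% Wilson intervals were 1434 to 2639 for naïve and 1676 to 2611 for day 7 injured cartilage, and they overlapped.

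By library the ratio had a lowest value of 1100, a median of 2203 and a highest value of 3049 reads of miR-21a-5p per read of miR-21a-3p in naïve cartilage. It was 3346, 1730 and 957 in day 1 contralateral, 1758, 1300 and 3812 in day 1 injured, 3656, 2503 and 2378 in day 7 contralateral, and 4813, 1763 and 2147 in day 7 injured libraries. All 5 groups overlapped, and the highest value of each loaded or contralateral group came from a library with 3 or 4 reads of the 3p arm.

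**Figure D3:**
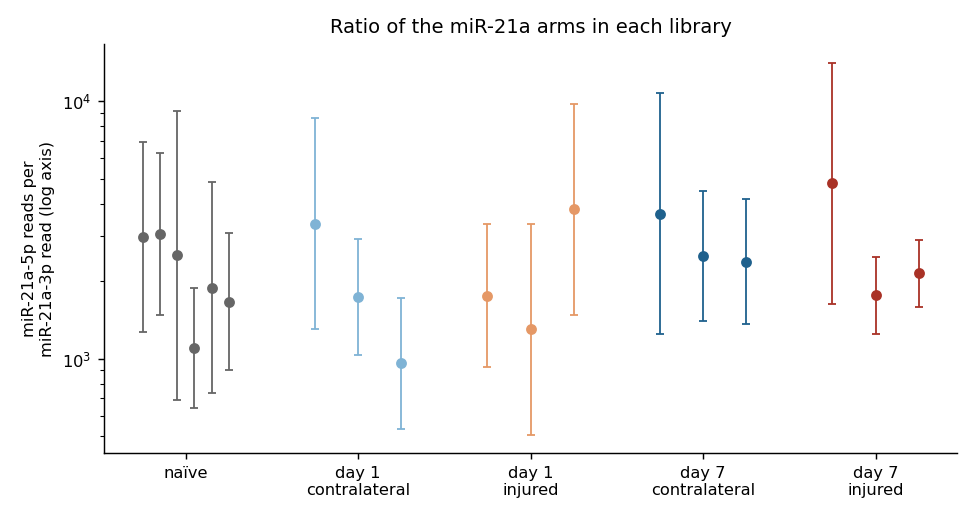
Reads of miR-21a-5p per read of miR-21a-3p in each library on a log axis, by group, with 95% Wilson intervals from the read counts. The groups overlap between 957 and 4813, and the interval is widest where few reads of the 3p arm were counted.

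On the log2 scale, with 0.5 added to each count, the ratio was 11.27 ± 0.65 (SD, n = 3) in day 7 injured, 11.33 ± 0.25 (SD, n = 3) in day 7 contralateral, 10.87 ± 0.79 (SD, n = 3) in day 1 injured, 10.69 ± 0.85 (SD, n = 3) in day 1 contralateral and 10.87 ± 0.53 (SD, n = 6) in naïve libraries. Day 7 injured against naïve gave a difference of 0.40 (95% interval -0.50 to 1.31, limma adjusted p = 0.780, and exact permutation p = 0.357 over libraries, two-sided). In that comparison 1.8% of the 111 hairpins were called. Against the day 7 contralateral knee the difference was -0.06 (95% interval -1.10 to 0.99, limma adjusted p = 0.966, exact permutation p = 0.9), with 0% of hairpins called, and against day 1 injured cartilage it was 0.41 (95% interval -0.64 to 1.45, limma adjusted p = 0.747, exact permutation p = 0.5), with 0.901% called. Permutations of 3 against 6 libraries cannot give less than 0.0238 and those of 3 against 3 not less than 0.1.

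A change of the arm ratio with injury was therefore not detectable at this depth. Day 1 injured cartilage differed in the ratio by -0.01 from naïve and by 0.17 from contralateral cartilage on the log2 scale, contralateral cartilage differed from naïve by 0.46 at day 7 and by -0.18 at day 1, and day 7 from day 1 contralateral by 0.64 (exact permutation p from 0.214 to 1, limma adjusted p from 0.719 to 0.998). The difference of the injury effect between day 7 and day 1 was -0.23 (limma adjusted p = 0.999). In each of these comparisons 0% of hairpins were called. The interval of each of the 9 differences reached at least 0.91 on the log2 scale in 1 direction or the other, a size of change that these counts could miss.

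Outside day 7 injured cartilage, the arms were compared across libraries. Over the 15 other libraries Pearson's r of the log2 CPM of the arms was 0.57 (permutation p = 0.0211) and Spearman's rho was 0.475 (permutation p = 0.0773), with 2 coefficients tested, no batch label given, and both arms scaled by the same library size. Adjusted over those coefficients by the Benjamini-Hochberg method, the permutation p was 0.0423 and 0.0773. The coefficients that follow were outside this adjustment. Without naïve replicate 3 and day 1 injured replicate 2, the libraries farthest from the median of the 5p arm, r was 0.46 (n = 13, permutation p = 0.121). Without those libraries, the lowest of all in miR-21a-5p at 3099 and 4357 CPM, r missed the threshold, though it was only a little smaller and rested on fewer libraries. Within the 6 naïve libraries r was 0.78 (exact permutation p = 0.075) and rho 0.486 (exact permutation p = 0.356). With library totals in place of TMM, r was 0.53 (permutation p = 0.0374) and rho 0.668 (permutation p = 0.00780). On that scale the 2 farthest libraries were naïve replicate 3 and day 1 injured replicate 3, and r was 0.32 without them (n = 13, permutation p = 0.292). The coefficients thus moved with the scaling and with the libraries left out, which were not the same on both scales.

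miR-21b rose together with miR-21a-5p and took a small share of their reads. It stood at between 14.7 and 53.8 CPM in naïve libraries with a median of 37.5 CPM, at 26.6, 32.8 and 45.6 CPM in day 1 contralateral, at 39.7, 20.1 and 35.0 CPM in day 1 injured and at 50.8, 26.6 and 44.9 CPM in day 7 contralateral libraries. Day 7 injured libraries gave 68.7, 101 and 136 CPM, above all others. It rose 3.17 fold against naïve (log2 1.66 ± 0.36 SE, limma-voom adjusted p = 0.00188), 2.59 fold against contralateral (log2 1.37 ± 0.41 SE, limma-voom adjusted p = 0.0267) and 3.21 fold against day 1 injured cartilage (log2 1.68 ± 0.43 SE, limma-voom adjusted p = 0.00851).

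Of the reads given to miR-21a-5p or miR-21b, miR-21b took 0.345%, 0.395% and 0.441% in day 7 injured libraries. The naïve libraries ran from 0.275% to 0.829% with a median of 0.467%, and the other groups from 0.369% to 0.670%, so the day 7 injured shares lay inside the naïve range. The share varied between libraries beyond counting error, from 0.275% (95% Wilson interval 0.203% to 0.373%) in naïve replicate 1 to 0.829% (0.648% to 1.06%) in naïve replicate 5. Summed over all libraries the share was 0.430% (95% Wilson interval 0.410% to 0.451%). Of the substitutions shown above, C4U is the one inside the seed. How many mismatches an aligned read could carry, and how a read that matches several mature sequences was counted, are not given in the sources used here, and whether the miR-21b reads came from the Mir21b hairpin or were miR-21a-5p reads was not tested.

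**Figure D4:**
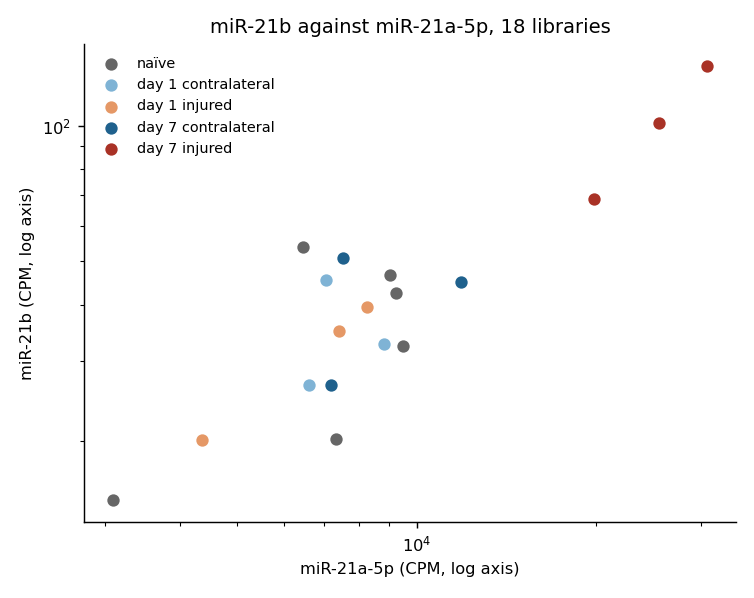
miR-21b against miR-21a-5p in CPM, both on log axes, with 1 point for each of the 18 libraries coloured by group. The day 7 injured libraries lie at the upper right (19837 to 30657 CPM and 68.7 to 136 CPM) and naïve replicate 3 at the lower left (3099 and 14.7 CPM).

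miR-21c, with the seed of miR-21a-5p on another chromosome, was close to absent. It held between 0 and 19 reads per library and 79 in all, or 0.0200% of its reads and those of miR-21a-5p together (95% Wilson interval 0.0161% to 0.0250%), and it did not pass the filter. Its 19 reads of day 7 injured replicate 3 (6.31 CPM) stood beside 0 and 4 reads in replicates 1 and 2. Among the names with a RefSeq sequence, the reads counted under this seed were almost all given to miR-21a-5p in every group. Names without such a sequence were not searched, and how reads matching both sequences were counted is not known.

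The miRNAs whose log2 CPM ran most like that of miR-21a-5p over the 18 libraries, among the 173 others averaging 100 CPM or more, were miR-379-5p (Pearson r = 0.89), miR-214-5p (0.86), miR-434-5p (0.84) and miR-199a-3p with miR-199b-3p (0.84 each). The last pair had the same values in every library and are 1 measurement. Their group means rose from 551 to 2351 CPM for miR-379-5p, from 586 to 1696 CPM for miR-214-5p, from 575 to 2302 CPM for miR-434-5p and from 20135 to 44691 CPM for miR-199a-3p between naïve and day 7 injured libraries, and each was called higher (limma-voom adjusted p = 1.59e-06, 6.58e-05, 4.75e-05 and 0.00201). For the rare 3p arm the most alike of 174 was miR-21a-5p itself (r = 0.76), followed by miR-335-3p (0.71), miR-199a-5p (0.68) and miR-199b-3p with miR-199a-3p (0.64 each). miR-21b, below the minimum of 100 CPM, had r = 0.89 with the 5p arm and 0.79 with the 3p arm. These coefficients are descriptions, since all rest largely on the same day 7 injured libraries.

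Other miRNAs known for links to fibrosis were read beside miR-21a-5p. Of 13 on the list, all tested, 2 rose and 0 fell at day 7 in the injured knee in each of the comparisons with naïve, contralateral and day 1 injured cartilage. Over all miRNAs tested 14.5%, 13.8% and 12.1% were called higher there and 3.74%, 0.935% and 3.5% lower, so the list's counts were near the background. The list's median log2 fold change was 0.05, -0.21 and 0.09, beside -0.0028, -0.05 and -0.07 over all miRNAs tested. With library totals in place of TMM the first of these list medians was -0.07, where the median of all miRNAs moved to -0.13. The list was not split by whether a member is known to promote or to oppose fibrosis, so its counts and medians give no direction for fibrosis. The members that rose were miR-199a-5p and miR-214-3p. The paper places miR-199a-2 and miR-214 in the human dynamin 3 opposite-strand transcript, and miR-199 at other human loci too. Counts per mature sequence do not tell which hairpin the miR-199a-5p reads came from. miR-199a-5p rose 2.29 fold against naïve (limma-voom adjusted p = 0.000726) and 2.87 fold against contralateral cartilage (0.000410). miR-214-3p was higher by 2.27 fold (0.000910) and 2.16 fold (0.00723) in the same order, and the latter call was lost with library totals (0.0745). The miR-29 family, known for repressing collagen mRNAs, was not called against naïve cartilage, with log2 fold changes of -0.21 for miR-29a-3p, 0.13 for miR-29b-3p and 0.05 for miR-29c-3p (limma-voom adjusted p = 0.598, 0.894 and 0.947), and miR-34a-5p, a p53 target, stood at 0.94 (0.129). At day 1 none of the 13 was called against naïve or contralateral cartilage.

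Of 8 miRNAs known to respond to mechanical load, 2 rose and 1 fell at day 7 against naïve cartilage, where 14.5% of all miRNAs were called higher and 3.74% lower, with a list median of -0.03. With so few members these counts are given as a description. miR-31-5p rose 4.15 fold (limma-voom adjusted p = 6.98e-06) and miR-27b-3p 1.60 fold (0.0196), whereas miR-103-3p fell by 0.55 on the log2 scale (0.0372), a call that was lost with library totals (0.100). Against contralateral and day 1 injured cartilage 1 of the 8, miR-31-5p, rose, by 7.29 fold (limma-voom adjusted p = 2.66e-06) and by 4.97 fold (4.56e-05), and 0 fell, beside 13.8% and 12.1% of all miRNAs called higher. At day 1 none was called.

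Markers of other cell types were read beside the rise, since miR-21a-5p is expressed in many cells. Leukocyte markers (6 miRNAs) summed to between 8002 and 9478 CPM in day 7 injured and between 6447 and 10851 CPM in naïve libraries, so the ranges overlapped, and 0 of them rose while 1 fell against naïve (2 with library totals). Vascular markers summed to between 74002 and 80724 CPM against 48221 to 83024 CPM, and skeletal muscle markers to between 69610 and 133903 CPM against 67477 to 198861 CPM, with 0 of 4 called in each list. Cartilage markers summed to between 6756 and 9983 CPM against 6172 to 10499 CPM, with 0 of 4 called. The summed erythroid markers (5 miRNAs) were lower, at between 4771 and 6656 CPM against 9923 to 14867 CPM in naïve libraries without overlap. Of the 5, 2 fell, where 3.74% of all miRNAs were called lower. Those 2, miR-486a-5p and miR-486b-5p, had the same counts in every library and are 1 measurement (log2 -1.22, limma-voom adjusted p = 0.000673), which the sum holds under both names. The other members, miR-451a, miR-144-3p and miR-144-5p, were not called (log2 -0.25, -0.0073 and -0.46, limma-voom adjusted p = 0.723, 0.988 and 0.409). Against the day 7 contralateral knee the skeletal muscle markers were lower without overlap (69610 to 133903 against 136656 to 249838 CPM), with log2 fold changes of -0.82 for miR-1a-3p, -1.26 for miR-133a-3p, -1.27 for miR-133b-3p and -0.58 for miR-206-3p, of which 0 of 4 were called (limma-voom adjusted p from 0.0838 to 0.471). The summed erythroid markers were lower there too (8694 to 12533 CPM contralateral), as they were against day 1 injured libraries (9781 to 17026 CPM). In both comparisons miR-486a-5p with miR-486b-5p was again the only erythroid measurement called. The ranges of the summed leukocyte, vascular and cartilage markers overlapped with those of day 7 contralateral and day 1 injured libraries. Against day 7 contralateral libraries 0 members of these 3 lists were called. Against day 1 injured libraries 1 of 4 cartilage markers was called higher and 1 of 6 leukocyte markers lower (0 with library totals), beside 12.1% and 3.5% of all miRNAs. The share of all miRNAs that were lower without overlap was not computed in any of these comparisons, so the lack of overlap of the erythroid and muscle sums has no background beside it. The part of the erythroid and skeletal muscle differences in the level of miR-21a-5p was not tested.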

How the data were processed

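Small RNA libraries of pooled mouse femoral condyle cartilage were sequenced, and the deposited table holds raw counts, with 1 row per library and 1 column per mature miRNA. Per the study's methods and the submitters' processing notes, the authors trimmed adapters with Trim Galore 0.6.6, aligned reads to miRBase mature sequences with Bowtie 1.3.0 and counted them with SAMtools 1.12, and they deposited these counts without normalisation. Rows were assigned to samples through the shared library number in their names, whose prefixes differ. Groups came from the treatment label, replicates were numbered in accession order, and no library was left out. The study modelled libraries of the same mouse pool as related. The labels do not give the pools, so libraries were treated as independent.

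Counts were analysed in R 4.3.3. filterByExpr of edgeR 4.0.16 (minimum count 10, minimum total 15) kept 428 of 1412 miRNAs. After TMM scaling, a limma 3.58.1 model (voom, lmFit, eBayes) with 5 group means and 9 contrasts took in all 18 libraries. The p-values, two-sided, were adjusted per contrast (Benjamini-Hochberg, threshold 0.05). CPM uses the TMM sizes, and log2 CPM a prior count of 2. The arm ratio was log2((5p + 0.5)/(3p + 0.5)), fitted with limma over 111 hairpins with both arms tested, with exact permutation tests over libraries for miR-21a (SciPy 1.17.1). Correlations used 100000 permutations. The fits were tested on simulated counts. Totals of 758388 to 4088852 counts set the precision: miR-21a-5p rests on 5043 or more reads per library and miR-21a-3p on between 2 and 43. Intervals cover counting error only, since PCR copies are not independent molecules.

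The miRNAs named are both arms, the near copies and seed sharers, the 5 miRNAs most alike each arm (minimum average 100 CPM), the 3 next above and below miR-21a-5p in mean CPM, and members of the fibrosis-linked and mechano-responsive lists. miR-31-5p, miR-27b-3p and miR-103-3p, the called members of the latter, and the erythroid and muscle markers are named after their values were seen. The members and lists were chosen with earlier results of these data known. Alternatives were DESeq2 1.42.0 size factors and test, library totals only, edgeR's quasi-likelihood test, voom with quality weights, no filter (every miRNA with a count), a strict filter (10 or more counts in each library), only the groups compared, other pseudocounts and leaving out each library. A spread trend for the arm ratio and a ratio to miR-140-3p were added after seeing the data.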

Additional observations from a re-analysis of the deposited data

Results flagged for a closer look

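In naïve cartilage, miR-21a-5p took 0.393% of the counts of replicate 3, which stood apart from the other 5 naïve libraries (0.779% to 0.898%) by more than Dixon's 95% criterion for 6 values allows. Chance marks about 1 in 20 such groups, and 8 measures of miR-21a and its near copies were looked at. On TMM-scaled sizes the same library, at 3099 CPM, was still the lowest but within the criterion. Its total was 1284839 counts and its TMM factor 1.27, and its vascular (48221 CPM), leukocyte (6447 CPM) and cartilage markers (6172 CPM) were the lowest of the naïve group and its erythroid markers (14867 CPM) the highest. Their part in the low share was not tested. Without it the rise at day 7 against naïve cartilage was 1.62 on the log2 scale (limma-voom adjusted p = 4.38e-05).

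The change of miR-21a-5p against the contralateral knee differed between the time points, by 1.75 on the log2 scale (limma-voom adjusted p = 0.0325, with the day 7 injured libraries above all others and the day 1 libraries overlapping). Leaving out a single library ended this call in 7 of 12 cases.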

How the results depend on the processing

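The day 7 rises of miR-21a-5p against naïve, contralateral and day 1 injured cartilage kept direction and call in every setting tried with the fit across all miRNAs and with each library left out (log2 1.62 to 2.002, 1.40 to 1.78 and 1.78 to 2.14 with a library left out). Relative to miR-140-3p, a ratio added after seeing the data, the latter 2 were 1.55 and 1.94. Their exact permutation p was 0.1, the smallest possible value, which the lack of overlap fixed. The larger change of miR-21a-5p at day 7 than at day 1 held in all other settings but ranged from 1.53 to 1.98 with a library left out, and 7 of 12 such fits lost the call.

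The calls of miR-21a-3p against naïve, contralateral and day 1 injured cartilage were lost with every miRNA kept (log2 1.57, 1.67 and 1.71), that against contralateral cartilage also with library totals only (1.75) and with only the groups compared (1.72), and leaving out a library gave 1.43 to 1.98, 1.56 to 2.10 and 1.49 to 2.10, with 2 of 9, 4 of 6 and 5 of 6 fits losing the call. The strict filter removed miR-21a-3p, so no value of it or of the arm ratio was run there. The correlation of the arms lost its call in the 6 naïve libraries alone (r = 0.78).

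Uncalled differences near 0 changed sign in places. With quality weights, miR-21a-5p stood at 0.0501 for day 1 injured against contralateral and at -0.13 for day 1 contralateral against naïve (-0.0521 with DESeq2), and miR-21a-3p at -0.0463 for the latter. With a library left out, miR-21a-5p ranged from -0.34 to 0.0942 (day 1 injured against naïve), -0.38 to 0.0690 (against contralateral), -0.14 to 0.18 (day 1 contralateral against naïve) and -0.0212 to 0.35 (day 7 against day 1 contralateral), and miR-21a-3p from -0.41 to 0.22, -0.86 to 0.0235 and -0.12 to 0.74 in the first 3 of these and from -0.41 to 0.15 for day 7 contralateral against naïve. The arm ratio with a pseudocount of 5 was 0.14 for day 7 injured against contralateral, -0.0575 for day 1 injured against contralateral, 0.0242 for day 1 contralateral against naïve and 0.20 for the difference between the time points. With a library left out these 4 ranged from -0.43 to 0.20, -0.26 to 0.60, -0.60 to 0.25 and -0.65 to 0.20, and day 1 injured against naïve from -0.44 to 0.34. The cause of these shifts was not tested. The arm ratio was called in no setting. No paired analysis was possible because the replicate numbers were given in accession order and pair no libraries. Depth limits miR-21a-3p, with 2 to 43 reads per library.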
